A study of Mus musculus with 12 samples.

Results

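The probes described here are the transcript probes whose names start with ASMM10SM, called SM below, on a mouse array made for transcripts. The rule takes every probe with that prefix, and it found 4087 of the 60691 transcript probes (6.73%). The other transcript probes belong to the prefixes ASMM10EP3A, here EP3A (48057 probes), and ASMM10EP3B, here EP3B (8497 probes), and to a set of 50 catalogue probes. The files and labels do not state which RNA class the SM prefix stands for. Each SM probe is named in the files by its own serial ID, so members are given by ID. Their gene names and probe sequences are not used here, and nothing is said about what their targets do. The SM probes were printed in 1 spot each and lay spread over the array, with 1026, 1018, 1024 and 1019 of them in 4 equal bands of its 384 rows, and 0 were saturated on any array.

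METTL3 is the catalytic subunit of the complex that writes N6-methyladenosine (m6A) on nuclear RNA. That mark is read by binding proteins that act on splicing, export, decay and translation. In immunoprecipitation of modified RNA, total RNA is divided into a bound fraction and what stays behind. The signal of a transcript in the bound fraction against the other then depends on how much of it was captured. Podocytes are the epithelial cells that form the slit diaphragm of the glomerular filter, and high glucose is used in culture as a model of diabetic injury to them.

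The samples were RNA of MPC5, a conditionally immortalised mouse podocyte line. Cells were transfected with a control siRNA (siNC) or with an siRNA against METTL3, and both groups were held for 24 h in 30 mmol/L glucose; no culture in normal glucose was analysed here. The control and the knockdown group had 3 arrays each, and the design text calls the replicates biological. Every array carried the immunoprecipitated fraction (IP) in Cy5 and the supernatant fraction (Sup) in Cy3, so 6 arrays gave 12 samples. The labels name no antibody, and the IP-to-Sup ratio is therefore given as a ratio and not as a methylation level. Dyes were not swapped, so a probe's dye bias stays in its ratio. The model is 1 cell line, and Mettl3 and the 17 kidney cell markers looked for had no named probe, so neither the knockdown nor the cell type was checked against expression. The file headers place control 1 and the 3 knockdown arrays on one slide (slide 1) and controls 2 and 3 on another (slide 2), and control 2 was scanned apart from the rest.

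The SM probes were well above background far more often in the Sup channel than in the IP channel. Shares are over the probes whose spot was not marked as an outlier. In Cy3 the share of SM probes well above background was 77.9%, 74.9% and 79.2% for controls 1 to 3, and 79.7%, 73.8% and 78.6% for knockdown replicates 1 to 3. In Cy5 the shares were 45.3%, 38.3% and 42.0% on the control arrays and 51.8%, 50.7% and 40.6% on the knockdown arrays. Knockdown arrays 1 and 2 were thus the highest in Cy5, while knockdown 3 lay between controls 2 and 3, so the groups overlapped. The group means were 41.9% ± 3.52 in control and 47.7% ± 6.13 in knockdown for Cy5, and 77.3% ± 2.21 and 77.4% ± 3.14 for Cy3 (SD, n = 3).

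In Cy3 the share of detected probes was slightly lower in SM than in EP3A and higher than in EP3B. The SM share was below that of EP3A on all 6 arrays, by 2.55 to 3.09 percentage points (-2.82, -2.55 and -3.09 on the controls, and -2.84, -2.94 and -2.89 on the knockdown arrays). In Cy5 the difference from EP3A changed sign between arrays, at -0.396, 1.23 and -0.960 points on the controls and -0.252, -0.245 and -2.29 points on the knockdown arrays. Against EP3B the SM share was higher on every array, by 7.37 to 9.69 points in Cy5 and by 5.34 to 6.73 points in Cy3. These differences are descriptions over the probes of shared arrays and carry no test.

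Most SM probes were on the same side of the detection flag on every array. Of 3989 SM probes with a kept Cy5 spot on all 6 arrays, 1315 were well above background on all 6 and 1813 on none. Of 4072 with a kept Cy3 spot on all arrays, 2907 were well above background on all 6 and 700 on none. A group of 676 SM probes, or 17.0% of the 3984 with both spots kept, was seen in Sup on all 6 arrays and in IP on none, against 19.1% of EP3A and 19.1% of EP3B probes. The opposite pattern, IP on all 6 arrays and Sup on none, was found for 0 SM probes. Neither channel was ever well above background for 693 SM probes (17.4%), a share between those of EP3A (14.9%) and EP3B (22.6%).

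Spot signals of the SM probes had the same middle as those of EP3A and a shorter bright end. These are signals of different spots and not amounts of RNA. The SM median of log2 Cy3 signal ran from 4.86 to 6.59 over the 6 arrays and that of EP3A from 4.82 to 6.62. At the 95th percentile of Cy3, SM stood at 11.3, 10.5 and 11.0 on the controls and at 11.3, 11.1 and 10.5 on the knockdown arrays, where EP3A stood at 13.4, 13.1, 13.4, 13.3, 13.2 and 13.0. Of the brightest 5% of transcript probes of an array, SM probes were rare members in both groups. In Cy3, 1.91% to 2.03% of SM probes were among them against 5.35% to 5.41% of EP3A probes. In Cy5 the ranges were 1.73% to 1.91% for SM and 5.32% to 5.48% for EP3A.

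Spots marked as outliers in Cy5 were left out, and they were bright ones. They numbered 34, 53 and 25 SM probes on control arrays and 12, 20 and 18 on knockdown arrays. More were removed from each control array than from any knockdown array, as in EP3A (1011, 1281 and 801, then 400, 356 and 370). On control 1 they were 0.832% of SM and 2.10% of EP3A spots. Their median log2 signal was between 12.0 and 14.6 on the 6 arrays, where the kept SM spots had medians between 4.43 and 6.56. In Cy3 at most 9 SM spots were marked on any array.

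The IP-to-Sup ratio of the SM family was above that of EP3A on each of the 6 arrays, in both groups alike. The ratio is log2 of Cy5 over Cy3 after dye normalization, centred on the array's median over tested probes. Tested means well above background in both channels on at least 3 arrays, which held for 1886 of the 4087 SM probes, while the remaining ones were too dim or had too few kept spots. The SM median ratio was 0.12, 0.10 and 0.20 for controls 1 to 3 and 0.27, 0.17 and 0.11 for knockdown replicates 1 to 3. Less the EP3A median of the same array these were 0.15, 0.12 and 0.23, then 0.30, 0.19 and 0.13, so that the groups overlapped throughout. EP3B stood above EP3A by 0.07 ± 0.01 in the control group and by 0.08 ± 0.01 in the knockdown group (SD, n = 3).

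The size of this offset depended on the background correction and on the signal. With normexp correction of the median signals followed by loess, the SM median stood above that of EP3A by 0.05 in control and 0.08 in knockdown arrays, with array values from 0.01 to 0.13. With the same correction EP3B stood further above EP3A than SM did on control 2 (0.04 against 0.01), and less far on the other arrays. Before dye normalization the SM median stood above that of EP3A by 0.05 to 0.23 on the 6 arrays. The tested probes were then divided into 5 bins of equal size by Cy3 signal. SM less EP3A was -0.04, 0.06, 0.19, 0.41 and 0.35 from the dimmest to the brightest bin, as means over 6 arrays. The sign was positive on 1 of 6 arrays in the dimmest bin, on 5 in the next and on all 6 in the 3 brighter ones. With bins by the mean of both channels SM less EP3A was -0.02, 0.05, 0.15, 0.34 and 0.33. EP3B less EP3A was -0.03, 0.01, 0.01, 0.20 and 0.18 over the Cy3 bins. Over the bins by mean it was -0.01, 0.04, 0.05, 0.16 and 0.15. A larger offset in the brighter bins was thus not particular to SM, though it was smaller in EP3B. SM probes were spread unevenly over the Cy3 bins, with 26.3% in the one before the brightest and 11.7% in the brightest, where EP3A had 19.7% and 20.8%. The part of spot brightness or dye in the offset was not tested.

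The middle of the SM ratios was narrower than that of EP3A. Their interquartile range was 0.75 ± 0.07 over the 6 arrays against 0.93 ± 0.08 for EP3A (SD, n = 6), and 60.8% ± 2.67 of SM probes lay above the array median against 48.6% ± 0.31 of EP3A probes (SD, n = 6). Ratios above 1, a 2-fold excess of IP over the array median, were found for 3.72% of SM and 6.45% of EP3A probes, and ratios below -1 for 10.5% and 12.7%. The lower end was not narrower, with a 5th percentile of -1.60 for SM and -1.55 for EP3A as means over 6 arrays, while the 95th percentiles were 0.91 and 1.10. EP3B had an interquartile range of 0.82 ± 0.11 and a shorter span than SM, from -1.41 to 1.03, with 9.62% of its ratios below -1. A subset of 1313 SM probes was detected in both channels of every array. Of these, 588 (44.8%) had a ratio above the array median on all 6 arrays, where 33% of the 17793 such transcript probes did. Below the median on all 6 arrays were 210 (16%), where the share over all was 27.7%. Another 6 of the 1313 (0.457%, against 1.47% over all) stayed above 1 on every array, and 42 (3.2%, against 3.78%) stayed below -1. Since probes of an array share its centring and dye curve, these shares are descriptions.

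Among SM probes detected in both channels of every array, those with the highest and lowest mean ratios are given as values. They kept their side on every array, which their choice by the mean over the same arrays made likely. ASMM10SM1100024434 had the highest mean ratio over 6 arrays, with 1.85, 4.28 and 2.32 on the controls and 1.07, 1.92 and 2.21 on the knockdown arrays. Control 2, the array scanned apart, gave the highest of these and knockdown 1 the lowest. ASMM10SM1100140614 followed with 2.25, 3.15 and 2.10 on the controls and 2.04, 1.45 and 2.22 on the knockdown arrays, again with control 2 highest. Both of these probes were dim in Sup, the lower channel of the ratio. Their scaled Sup signals, as defined below, ran from -4.16 to -2.78 for ASMM10SM1100024434 and from -3.60 to -2.80 for ASMM10SM1100140614. The part of a dim Sup signal in these high ratios was not tested. At the other end, ASMM10SM1100061749 had ratios of -3.05, -3.24 and -2.81, then -2.68, -2.65 and -3.35. ASMM10SM1100117192 had -2.84, -3.27 and -2.66, then -2.47, -2.36 and -2.79. In all 4 probes the knockdown and control arrays overlapped.

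The spread of SM probes between replicates was largest in the IP channel of the knockdown arrays, among the 3 measures. Over the SM probes well above background on all 6 arrays, the median SD between arrays was 0.23 in control and 0.19 in knockdown for the ratio, and 0.22 and 0.24 for Sup. For IP it was 0.27 in control and 0.36 in knockdown, where EP3A probes had 0.32 and 0.24. Feature Extraction's own error of the ratio had a median of 0.22 to 0.23 log2 units on the 6 arrays for detected SM spots.

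Replicate 3 of both groups had lower SM signals than its partners, relative to the other families. The labels give these arrays bracketed names of another form (N2-1 and S2-2) than those of replicates 1 and 2. Each probe was set against its own mean over the 6 arrays, and the family median was taken. In Sup, SM less EP3A was 0.02 and 0.06 on controls 1 and 2 but -0.12 on control 3, and -0.0026 and 0.12 on knockdown 1 and 2 but -0.09 on knockdown 3. In IP it was -0.04 and 0.03 on controls 1 and 2 but -0.10 on control 3, and 0.17 and 0.19 on knockdown 1 and 2 but -0.24 on knockdown 3. The 2 arrays of replicate 3 were thus the lowest in both channels, and knockdown 3 was the lowest in IP. In the ratio they fell on opposite sides, at 0.06 for control 3 and -0.09 for knockdown 3. The group differences of the family given next therefore depend on which of these arrays enter.

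Knockdown against control is the comparison the design text names, and for the IP-to-Sup ratio no SM probe passed the adjusted threshold. limma called 0 of the 1886 tested SM probes at an adjusted p under 0.05, as it called 0 of all 27127 tested probes (0%); the smallest adjusted p of an SM probe was 1.00. At an unadjusted p under 0.05 there were 66 SM probes (3.5%), against 2.98% of all tested probes. In the knockdown 46 of them were higher (2.44%, against 1.63%) and 20 lower (1.06%, against 1.36%). Without knockdown 2 the count was 38 (2.01%, against 2.08%) and without knockdown 3 it was 43 (2.28%, against 1.82%). Groups did not overlap in 146 of the 1814 SM probes with 6 values (8.05%, against 7.75% of all such probes). Of these 95 were higher in the knockdown (5.24%, against 3.65%) and 51 lower (2.81%, against 4.1%). The count and its split moved with the processing. Normexp background correction with loess gave 73 SM probes, 61 higher and 12 lower (3.87%, against 3.58% of all). No centring gave 77 (62 and 15), or 4.08% against 3.2%. Centring on 15 spike-in probes, an alternative added after the data were seen, gave 40 (22 and 18), or 2.12% against 2%. The median SM difference was 0.04 against -0.0065 over all tested probes. The SM median less that of all probes was 0.05, and it was -0.00049 without knockdown 1 and 0.11 without knockdown 3. The half-width of the 95% interval of an SM probe's difference had a median of 0.50, for single probes and without adjustment. In 7 SM probes the estimated difference exceeded 1 in either direction, and none of these passed the adjusted threshold.

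Among SM probes detected in both channels of every array, those with the smallest unadjusted p for the ratio are given as values. ASMM10SM1100043631 had ratios of 0.51, 0.76 and 0.40 on the controls and -0.06, -0.11 and -0.11 on the knockdown arrays. Every knockdown array was below every control array. The difference was -0.65 with a 95% interval from -1.06 to -0.25 (limma, unadjusted p = 0.00600, adjusted p = 1.00). Its IP difference was -0.79 (limma, unadjusted p = 0.0274, adjusted p = 0.787) and its Sup difference -0.08.

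ASMM10SM1100145688 had 0.81, 1.16 and 0.92 on the controls and 0.57, -0.14 and 0.43 on the knockdown arrays, again without overlap. Its difference was -0.68, with an interval from -1.21 to -0.14 (limma, unadjusted p = 0.0193, adjusted p = 1.00). ASMM10SM1100036934 had -0.32, -0.28 and -0.29 on the controls and 0.23, 0.45 and 0.04 on the knockdown arrays. All 3 knockdown values lay above all controls, with a difference of 0.54 and an interval from 0.12 to 0.96 (limma, unadjusted p = 0.0175, adjusted p = 1.00). ASMM10SM1100137546 had -0.02, -0.17 and 0.15, then 0.27, 0.82 and 0.64, and the difference between the groups was 0.59, from 0.11 to 1.07 in its interval (limma, unadjusted p = 0.0212, adjusted p = 1.00). The groups did not overlap in this probe either, and its Sup difference was 0.0018. With normexp the ratio differences of ASMM10SM1100043631, ASMM10SM1100145688, ASMM10SM1100036934 and ASMM10SM1100137546 were -0.29, -0.28, 0.17 and 0.28.

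In IP RNA, the Cy5 signal less the array's 75th percentile, a smaller share of SM probes than of all probes had an unadjusted p under 0.05, an order that turned with spike-in scaling (4.49% of SM against 4.32% of all). limma called 0 of 1891 tested SM probes and 0 of 27183 tested probes (0%) at an adjusted p under 0.05, with a smallest adjusted p of 0.787 in SM. At an unadjusted p under 0.05 there were 49 SM probes (2.59%), against 4.09% of all tested probes. Of these 13 were higher (0.687%, against 0.728%) and 36 lower (1.9%, against 3.36%). Some of the higher ones, and ASMM10SM1100150927 among the lower ones, were detected in one group alone and passed the filter through it. With detection required on all 6 arrays, 3 SM probes were higher and 20 lower, or 1.75% of 1315 against 5.27% of all. With the main filter the SM count was 81 without control 1 (4.28%, against 7.51% of all) and 86 without control 3 (4.55%, against 6.09%). It was 19 without knockdown 1 (1%, against 1.55%) and 29 without knockdown 2 (1.53%, against 2.3%). Groups did not overlap in 136 of 1821 SM probes with 6 values (7.47%), against 12.5% of all such probes. In the lower direction these were 97 SM probes (5.33%, against 10.2%) and in the higher direction 39 (2.14%, against 2.3%). The difference between SM and the other families was not tested.

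The direction of the SM probes with an unadjusted p under 0.05 in IP was not stable. Against 13 higher and 36 lower, the SM split was 15 and 77 with quantile normalization (4.87% of SM, against 8.03% of all). It was 38 and 8 in the deposited values (2.43%, against 2.84%) and 80 and 5 with spike-in scaling (4.49%, against 4.32%). It was 17 and 15 with normexp background correction (1.69%, against 3.33%) and 29 and 13 with outlier spots kept (2.22%, against 2.78%). With the scaling as it was, it was 37 and 28 without knockdown 3 (3.44%, against 4.08%). Array weights gave 81 and 94 (9.25%, against 13.8%). The median difference was -0.06 for SM and -0.15 for all tested probes. Over all probes that median was 0.16 with spike-in scaling, 0.07 in the deposited values and -0.05 with outlier spots kept, so only the position of SM relative to it is described. SM less all was 0.09, and between 0.09 and 0.10 under those 3 settings. It rested on the knockdown arrays that entered. It was 0.02 without knockdown 1, 0.01 without knockdown 2 and 0.23 without knockdown 3. The median half-width of the 95% interval was 0.70 for an SM probe.

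Among SM probes detected in Cy5 on every array, those with the smallest p for IP are given as values. Of these, the ones lower in the knockdown had the smaller p. Some SM probes not detected on every array had a smaller p than these, in both directions. ASMM10SM1100024434, the probe with the highest mean ratio, had IP values of -0.64, 1.07 and -0.68 on the controls and -1.74, -2.04 and -1.17 on the knockdown arrays. No knockdown value reached a control value, and control 2 was the highest. The difference was -1.57, with an interval from -2.72 to -0.42 (limma, unadjusted p = 0.0138, adjusted p = 0.787). ASMM10SM1100015523 had 2.69, 3.94 and 3.39 on the controls and 2.36, 2.28 and 2.26 on the knockdown arrays. Its groups did not overlap, and its difference was -1.04 with an interval from -1.81 to -0.27 (limma, unadjusted p = 0.0144, adjusted p = 0.787). Without control 2 the difference of ASMM10SM1100024434 was -0.99, and with normexp it was -0.38. A slide term, which sets control 1 alone against the knockdown arrays, gave -1.01 for ASMM10SM1100024434 and -0.39 for ASMM10SM1100015523. In Sup the latter differed by -0.81 (limma, unadjusted p = 0.0201, adjusted p = 1.00) and in the ratio by -0.17 (limma, unadjusted p = 0.558, adjusted p = 1.00).

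The probes named as higher in the knockdown also come from those detected in Cy5 on every array. ASMM10SM1100043713 had IP values of 0.33, 0.36 and 0.25 on the controls and 0.89, 0.76 and 0.69 on the knockdown arrays. The groups did not overlap, with a difference of 0.47 and an interval from -0.02 to 0.95 (limma, unadjusted p = 0.0591, adjusted p = 0.787). ASMM10SM1100007728 had 1.69, 1.83 and 2.45, then 2.67, 2.42 and 2.62, so control 3 lay within the knockdown range. Its difference was 0.58, with an interval from -0.04 to 1.21 (limma, unadjusted p = 0.0634, adjusted p = 0.787). Spike-in scaling gave 0.78 for ASMM10SM1100043713 and 0.90 for ASMM10SM1100007728. For ASMM10SM1100043713 normexp gave 0.28 and the deposited values 0.70. For ASMM10SM1100007728 the slide term, thus control 1 alone, gave 0.88.

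In Sup RNA, the Cy3 signal less the array's 75th percentile, 3206 of the 4087 SM probes were tested, and few had an unadjusted p under 0.05. limma called 0 SM probes and 0 of 48519 tested probes (0%) at an adjusted p under 0.05, with a smallest adjusted p of 1.00 in SM. At an unadjusted p under 0.05 there were 17 SM probes (0.53%), against 1.21% of all tested probes. Of these 2 were higher (0.0624%, against 0.165%) and 15 lower (0.468%, against 1.04%). The SM count was 43 without control 1 (1.34%, against 2.92% of all) and 30 without knockdown 1 (0.936%, against 1.31%). It was 9 without knockdown 2 (0.281%, against 1.22%) and 33 without knockdown 3 (1.03%, against 1.64%). Groups did not overlap in 112 of 3191 SM probes with 6 values (3.51%, against 5.14%), 80 of them lower (2.51%, against 3.61%) and 32 higher (1%, against 1.53%). Equal replicate numbers varied together in Sup, as did control 3 with knockdown 1. A block for the replicate number gave an unadjusted count of 104 SM probes, 9 higher and 95 lower (3.24%, against 7.21% of all). It still gave 0 at an adjusted p under 0.05. The split was 15 higher and 16 lower with quantile normalization (0.967% of SM, against 1.76% of all) and 4 and 10 with normexp (0.437%, against 1.36%). It was 5 and 2 in the deposited values (0.367%, against 0.859%) and 1 and 35 with spike-in scaling (1.12%, against 2.26%). The median Sup difference was -0.05 for SM and -0.06 for all tested probes; with spike-in scaling it was -0.19 and -0.20. The median half-width of the 95% interval was 0.49.

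Among SM probes detected in Cy3 on every array, the 2 lower in Sup with the smallest p had differences of a like size in IP. ASMM10SM1100059345 had Sup values of 5.53, 6.37 and 5.92 on the controls and 4.74, 4.92 and 5.46 on the knockdown arrays. All knockdown values lay below all controls, and the difference was -0.90 with an interval from -1.54 to -0.26 (limma, unadjusted p = 0.0119, adjusted p = 1.00). Its IP difference was -0.84 (limma, unadjusted p = 0.0276, adjusted p = 0.787), from 5 arrays since its Cy5 spot on control 2 was an outlier, and its ratio differed by -0.10. ASMM10SM1100135533 had 2.44, 3.34 and 2.67, then 1.96, 2.14 and 2.12, with no overlap between the groups, which differed by -0.74 (limma, unadjusted p = 0.0174, adjusted p = 1.00). Its IP difference was -0.78 and its ratio difference 0.02. Without control 2 the Sup difference of ASMM10SM1100135533 was -0.48. With the slide term, thus against control 1 alone, that of ASMM10SM1100059345 was -0.49 and that of ASMM10SM1100135533 was -0.36. With normexp they were -0.57 and -0.41. Quantile normalization gave -0.44 for ASMM10SM1100059345.

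The 2 probes with the smallest p among those higher in Sup were dim. ASMM10SM1100139843 had -3.74, -3.90 and -3.74 on the controls and -3.33, -2.58 and -3.45 on the knockdown arrays, which is higher by 0.68 with an interval from 0.10 to 1.25 (limma, unadjusted p = 0.0264, adjusted p = 1.00). ASMM10SM1100013344 had -3.32, -3.41 and -3.36, then -2.74, -2.89 and -3.19, which is higher by 0.43 with an interval from 0.02 to 0.83 (limma, unadjusted p = 0.0432, adjusted p = 1.00). In both the groups did not overlap, and neither was tested in IP or in the ratio, since Cy5 was well above background on fewer than 3 arrays. Without knockdown 2 the difference of ASMM10SM1100139843 was 0.41. With normexp that of ASMM10SM1100139843 was 0.11 and that of ASMM10SM1100013344 was 0.094.

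A few SM probes were detected in all arrays of one group and in none of the other. In Cy5, 19 of 3989 SM probes (0.476%) were well above background on the 3 knockdown arrays and on 0 control arrays, against 0.543% of all 57834 probes with kept spots. The opposite held for 1 SM probe, against 0.0138% of all. In Cy3 there was 1 SM probe in each direction, against 0.0281% and 0.0132% of all 60468. Such probes passed the filter of at least 3 arrays through the detected group alone. Their fitted differences and p carry that choice and are given as values only. For such probes only a floored fold can be given. It sets the mean of the detected group against, per array, the higher of the probe's own signal and the lowest signal well above background, after Aquantile normalization. It is open to dye bias, and it is a value of means without an interval, so it does not bound the change.

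ASMM10SM1100150927 was the 1 probe detected in Cy5 on controls alone, with log2 signals of 6.61, 7.68 and 6.79 on the controls and 5.42, 5.67 and 5.78 on the knockdown arrays. Its floored fold was 2.54, lower in the knockdown, with measured means of 7.03 and 5.63. The fitted IP difference of this probe was -1.42 (limma, adjusted p = 0.787). In Sup it differed by -0.02. Of the probes detected in Cy5 on knockdown arrays alone, ASMM10SM1100115632 had 5.87, 6.85 and 6.25 on the controls and 7.88, 6.89 and 6.84 on the knockdown arrays. Its floored fold was 1.84, higher in the knockdown (fitted difference 0.86, limma, adjusted p = 0.787), although control 2 exceeded knockdown 3 in signal. ASMM10SM1100086626 had 5.99, 5.85 and 5.86, then 6.61, 6.67 and 6.50, without overlap. Its floored fold was 1.57, higher in the knockdown (fitted difference 0.69, limma, adjusted p = 0.787).

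In Cy3, ASMM10SM1100141735 was detected on knockdown arrays alone, with 3.82, 2.00 and 3.40 on the controls and 4.03, 4.13 and 3.98 on the knockdown arrays. Its floored fold was 1.20, higher in the knockdown, with control 2 far below the other controls (limma, adjusted p = 1.00). ASMM10SM1100138851 was detected on controls alone, with 4.02, 4.10 and 3.87, then 3.69, 3.88 and 3.30. Its floored fold was 1.18, lower in the knockdown (limma, adjusted p = 1.00). Its values overlapped between the groups on this scale, since knockdown 2 lay above control 3.

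The slide was not the same for both groups, so each comparison was also fitted with the slide as a term and within slide 1, where control 1 stood against the 3 knockdown arrays. In that fit the lone control is assumed to vary as the knockdown arrays do. Both settings were added after the data were seen. Since slide 2 held no knockdown array, both take a probe's group difference from control 1 alone and give the same estimate. They are 1 contrast and not 2. For SM they called 0 probes at an adjusted p under 0.05 in the ratio, in IP and in Sup. At an unadjusted p under 0.05, the slide term left 41 SM probes in the ratio (35 higher, 6 lower), or 2.17% against 2.61% of all probes. It left 20 in IP (11 and 9; 1.06% against 1.64%) and 15 in Sup (6 and 9; 0.468% against 0.499%). Slide 1 alone gave 74 in the ratio (62 and 12; 3.96% against 5.04%), 42 in IP (23 and 19; 2.24% against 3.19%) and 20 in Sup (10 and 10; 0.624% against 0.643%). The SM share was thus below that of all probes in these fits of 1 contrast, also in the ratio, where the main fit had it above. For the ratio it was also below with quantile normalization (4.03%, against 4.22%) and without a filter on dim probes. The same held without control 1 (4.77%, against 6.15%), without control 2 (3.18%, against 3.65%) and without knockdown 2 (2.01%, against 2.08%). In the remaining ratio alternatives it was above. Slide 2 held controls alone, so no value can be had within it.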

How the data were processed

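Per the file headers, the authors made the intensity values with Agilent Feature Extraction 11.0.1.1, which subtracts background and normalizes the dyes of each array (a linear factor, then lowess). A shift common to all ratios of an array is largely removed by that step. The log10 ratio error and the detection flags (well above background, outlier, saturated) are as deposited. The log2 values deposited by the authors cover 27920 probes, 1910 of them SM. The SM rows are the SM probes well above background in Cy5 on at least 3 arrays, without exception. Each column equals log2 of the processed signal plus a constant to within 5e-09, and how the constants were set stays unknown.

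From these values, outlier spots were dropped per channel, spots of a probe averaged and log2 taken. The ratio was centred on the array's median over tested probes, and single channels were scaled to the 75th percentile. Probes well above background on at least 3 of 6 arrays, with at least 2 values per group, were tested with limma 3.58.1 (lmFit, eBayes; R 4.3.3, with version 1.17.8 of data.table) and Benjamini-Hochberg adjustment over all tested probes. The script was tested on simulated data. The number of arrays limits the precision.

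Equal replicate numbers were checked by the correlation of deviations from group means. In Sup it was 0.40, 0.58 and 0.32, each over 0.1. The unequal pair of control 3 and knockdown 1 also reached 0.29, and the other unequal pairs ran from -0.49 to 0.0024. Deviations from a mean of 3 arrays are not independent, so pairing of the Sup samples by number is not settled. The labels give no source of such pairing. Alternatives were other filters, background corrections, scalings and detection flags, the deposited values, array weights, the block, and leaving out each array. The planned normexp correction (offset 50) used the spots' median signal with the median local background, as the columns used here give no spot mean.

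Named probes were, per measure, the 2 with the smallest unadjusted p in each direction among SM probes well above background on all 6 arrays, the 2 highest and 2 lowest mean ratios, and up to 2 per direction and channel detected in one group alone. Members, lists and rules were chosen with earlier results of these data known.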

Additional observations from a re-analysis of the deposited data

How the results depend on the processing

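SM calls at an adjusted p under 0.05 were 0 in the ratio, IP and Sup under every alternative run. Over all probes a few alternatives gave calls, none of them at an SM probe. In IP there were 1 without control replicate 2, 2 with array weights and 3 on slide 1 alone. In Sup there were 1 with array weights, 5 with the slide as a term, 6 on slide 1 alone and 12 with spike-in scaling. The ratio gave 0 under each.

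SM counts at an unadjusted p under 0.05 ran from 38 to 174 in the ratio (66 as reported), from 19 to 205 in IP (49) and from 7 to 104 in Sup (17). Without a filter on dim probes they were 174 (4.37% of SM, against 4.72% of all probes), 205 (5.14%, against 5.95%) and 56 (1.38%, against 1.79%), each share below that of all probes. Requiring detection on all 6 arrays gave 38 (2.89%, against 2.56%), 23 (1.75%, against 5.27%) and 13 (0.447%, against 1.21%). There 1313, 1315 and 2907 SM probes were tested. Median scaling gave 27 in IP (1.43%, against 2.89%) and 23 in Sup (0.717%, against 1.25%). Spike-in scaling gave 40 (2.12%, against 2%), 85 (4.49%, against 4.32%) and 36 (1.12%, against 2.26%). With array weights the counts were 69 (3.66%, against 3.17%), 175 (9.25%, against 13.8%) and 49 (1.53%, against 2.49%). Quantile normalization gave 76 (4.03%, against 4.22%), 92 (4.87%, against 8.03%) and 31 (0.967%, against 1.76%). Normexp gave 73 (3.87%, against 3.58%), 32 (1.69%, against 3.33%) and 14 (0.437%, against 1.36%). Leaving out 1 array gave 38 to 97 in the ratio (2.01% to 5.14%, against 1.82% to 6.15% of all). In IP it gave 19 to 86 (1% to 4.55%, against 1.55% to 7.51%) and in Sup 9 to 43 (0.281% to 1.34%, against 1.11% to 2.92%). The lowest counts were without knockdown 2, without knockdown 1 and without knockdown 2, and the highest without control 3, without control 3 and without control 1. The median IP difference of SM was 0.09 without knockdown 3 and 0.09 with array weights, against -0.06. The cause was not tested.

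With the replicate block the counts were 65 (3.45%, against 3.29% of all), 81 (4.28%, against 7.32%) and 104 (3.24%, against 7.21%). The block changed no call at an adjusted p. For IP and the ratio not all equal numbers correlated over 0.1, at 0.25, 0.30 and 0.07 in IP and at 0.015, 0.093 and -0.0031 in the ratio. There the samples share only a number.

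The SM median ratio less that of EP3A was 0.16 ± 0.05 for control and 0.21 ± 0.09 for knockdown (SD, n = 3 each). Normexp gave 0.046 and 0.081. Leaving out 1 array gave 0.13 to 0.19 and 0.16 to 0.24. With the less strict flag for a positive and significant signal, detection in Cy5 was 65.2% in control and 70.0% in knockdown arrays, and in Cy3 91.2% and 91.1%. None of the probes named for their smallest p changed sign in any alternative run for it. Their choice by p from the same arrays made that likely. The largest of their unadjusted p in these runs was 0.502 (limma, ASMM10SM1100013344 in Sup with spike-in scaling). The probes named for an extreme ratio or for detection in one group were not recomputed. The 2 dim Sup probes are not in the deposited table.

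In Cy5 41.9% of SM probes were well above background in control and 47.7% in knockdown arrays, so the ratio and IP results cover the brighter SM probes.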
